A study of Mus musculus with 12 samples.

Results

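A set of 10 genes that carries the TGF-β signal from the cell surface to the nucleus was followed in aortic smooth muscle cells (SMCs) of adult mice: *Tgfbr1*, *Tgfbr2*, *Tgfbr3*, *Acvrl1*, *Eng*, *Smad1*, *Smad2*, *Smad3*, *Smad4*, and *Smad5*. The genes were chosen by symbol, and all 10 were found among the 52636 genes of the count table and passed the filter on low counts that left 22320 genes. Only *Tgfbr3* differed between genotypes past an adjusted p of 0.05, and it was higher in Tgfbr1/2iSMCKO SMCs by 0.52 on the log2 scale. That call rests on 12 libraries from 6 animals and was lost when counts were summed per animal (adjusted p = 0.10 by edgeR). *Smad3* had the largest fitted difference, 0.66 higher, without passing the test. Counts of *Tgfbr1* and *Tgfbr2*, the genes targeted for deletion, differed by 0.10 and −0.26, and neither passed. A gene count sums reads over a whole gene, so that it cannot show whether the floxed exons were lost.

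The SMCs came from C57BL/6J mice of 12 weeks of age, and 3 animals of each genotype gave separate libraries for ascending aorta with arch and for descending thoracic aorta, 12 libraries in 4 groups of 3. Both genotypes carry *Myh11-CreERT2*, a tamoxifen-inducible Cre recombinase driven in smooth muscle by the *Myh11* promoter, and the *mT/mG* reporter, which turns on GFP after recombination. GFPiSMC mice have no floxed receptor allele, whereas Tgfbr1/2iSMCKO mice (KO) are also homozygous for floxed *Tgfbr1* and *Tgfbr2*, so that mouse line and deletion cannot be told apart. All received tamoxifen for 5 days. The labels name 1 or 2 mg per day and 4 or 11 weeks of age without tying either to a library. The study's methods give 2 mg per day for adult mice induced at 11 weeks, and 1 mg per day for a subgroup induced at 4 weeks. GFP-positive cells were sorted, 9208 to 20000 per library, and GFP reports recombination of the reporter rather than of the receptor alleles. Total counts ranged from 20467027 to 31392396 per library. Summed smooth muscle markers lay at 36131 to 49457 CPM (counts brought to one shared library size), against 98.5 to 177 CPM for endothelial and 6.20 to 22.2 CPM for macrophage markers. Fibroblast markers summed to 80.1 to 236 CPM in ascending/arch and 16.2 to 39.7 CPM in descending libraries. The sum of 3 cardiac markers was 46.8 to 106 CPM in ascending/arch libraries of KO mice, against 6.93 to 27.8 CPM in the others. That sum was mostly *Tnnt2*, which reached 105 CPM. *Myh6* reached at most 2.09 CPM, and *Nppa* was at 0 in 9 of the 12 libraries. The part of other cell types in the results below was not tested.

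TGF-β ligands bind a type II receptor serine/threonine kinase, *Tgfbr2*, which activates a type I receptor, mainly *Tgfbr1* (ALK5). *Tgfbr3* (betaglycan) and *Eng* (endoglin) are co-receptors that bind ligand without signaling as kinases, and *Acvrl1* (ALK1) is another type I receptor, best known from endothelial cells. *Tgfbr1* phosphorylates Smad2 and Smad3, whereas *Acvrl1* and the BMP receptors phosphorylate Smad1 and Smad5, and both kinds of receptor-regulated Smad enter the nucleus with the common partner Smad4. Variants of several of these genes cause inherited aortic aneurysm in people.

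The promoters of both targeted receptors and of *Smad3*, the gene with the largest fitted genotype difference, are shown for the DNA that lies before their starts. All 3 are protein-coding genes, and in GRCm38 *Tgfbr1* spans chr4:47353222-47414931 (+), *Tgfbr2* chr9:116084293-116175360 (−), and *Smad3* chr9:63646767-63757994 (−). The sequences come from RefSeq (GRCm38.p6), and windows of 6 of the 10 genes were counted. They hold the 250 bases before the start on the gene's own strand. Those shown lie at chr4:47352972-47353221 (+) for *Tgfbr1*, chr9:116175364-116175613 (−) for *Tgfbr2*, and chr9:63757995-63758244 (−) for *Smad3*. Capitals mark CAGAC or its reverse complement GTCTG, a short motif that Smad3 and Smad4 are known to bind.
Tgfbr1: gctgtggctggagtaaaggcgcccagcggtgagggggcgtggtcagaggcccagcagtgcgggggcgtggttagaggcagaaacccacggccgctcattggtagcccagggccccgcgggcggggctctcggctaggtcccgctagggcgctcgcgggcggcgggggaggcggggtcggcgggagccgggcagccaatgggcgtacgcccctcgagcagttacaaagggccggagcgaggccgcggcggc
Tgfbr2: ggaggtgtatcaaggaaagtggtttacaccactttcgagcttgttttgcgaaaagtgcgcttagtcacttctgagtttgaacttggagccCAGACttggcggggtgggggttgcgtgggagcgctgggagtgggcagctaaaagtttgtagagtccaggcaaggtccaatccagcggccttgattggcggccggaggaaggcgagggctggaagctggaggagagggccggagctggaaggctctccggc
Smad3: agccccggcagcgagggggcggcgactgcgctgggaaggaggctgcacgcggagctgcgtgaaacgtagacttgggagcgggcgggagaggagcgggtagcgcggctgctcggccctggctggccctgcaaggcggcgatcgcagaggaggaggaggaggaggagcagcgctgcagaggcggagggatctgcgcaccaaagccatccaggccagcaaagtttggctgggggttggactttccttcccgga
The motif occurred once in the *Tgfbr2* window and in neither of the other 2 windows shown. RefSeq gives *Tgfbr1* another start further downstream, and the window before it (chr4:47385966-47386215, +), not printed here, held the motif once and had a GC content of 52.8%. The motif was present in 4 of 9 windows of the 6 genes counted. It was present in 42.2% of 32851 windows of the same length before all RefSeq starts. No window of *Tgfbr3*, *Acvrl1*, *Smad2*, or *Smad4* was among the 9, so that the motif's share in the whole set of genes is not known. Their absence from this count does not mean that RefSeq lists no start for them. GC content was 74.8% for the *Tgfbr1* window shown, 69.2% for *Smad3*, and 58.4% for *Tgfbr2*, against a median of 52.4% over all windows.

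The type I receptor *Tgfbr1* was the most abundant of the 10 when counts were scaled to exon length. Its mean over the 12 libraries was 37.2 ± 5.16 CPM per kb of exon (SD, n = 12), and it exceeded every other gene of the set in all 12 libraries. *Tgfbr3* followed with 19.8 ± 4.87 CPM per kb, and the lowest *Tgfbr1* library (30.0) lay above the highest *Tgfbr3* library (27.9). The common partner *Smad4* (14.3 CPM per kb) and the type II receptor *Tgfbr2* (11.9 CPM per kb) came next. *Eng* (7.75), *Smad1* (6.86), *Smad5* (4.45), *Smad3* (4.28), *Smad2* (2.11), and *Acvrl1* (1.70) were lower on the same scale. From *Tgfbr3* downward the ranges of all neighbors in this order overlapped, and the order of a neighboring pair held in 7 to 11 of 12 libraries. With the longest annotated transcript as the length, *Smad1* (11.4 CPM per kb) stood above *Eng* (9.16 CPM per kb). The receptor-regulated Smads of the BMP and ALK1 branch, *Smad1* and *Smad5*, made up 49.0% to 78.4% of the summed per-length level of *Smad1*, *Smad2*, *Smad3*, and *Smad5* in each library.

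**Figure D1:**
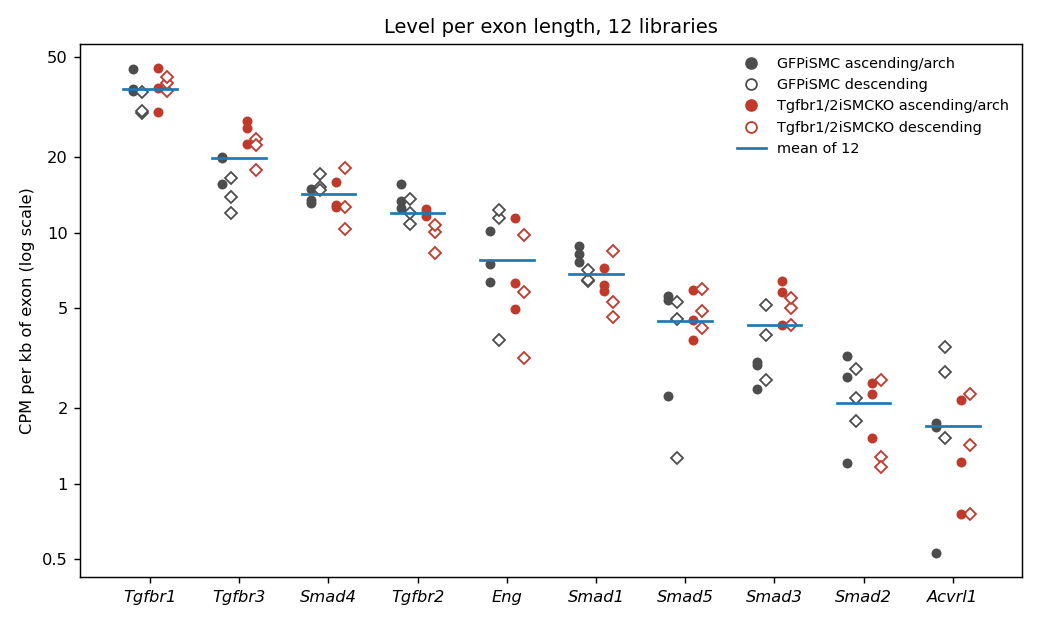
Level of each gene in CPM per kb of merged exon (log axis) in 12 libraries, as filled circles for ascending/arch and open diamonds for descending, gray for GFPiSMC and red for Tgfbr1/2iSMCKO; blue bars are means. *Tgfbr1* lies above all other genes, from 30.0 to 45.2 CPM per kb, and *Acvrl1* is lowest by mean, at 1.70.

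The genes also differed in how tightly their levels held between libraries. The coefficient of variation over the 12 libraries was 13.9% for *Tgfbr1*, 15.1% for *Smad4*, 15.6% for *Tgfbr2*, and 18.7% for *Smad1*. It was 41.0% for *Eng* and 51.6% for *Acvrl1*, whose counts ran from 66 to 426 and whose highest library was 6.59 times its lowest. *Smad5* varied 4.73-fold, and its lowest values were 9.36 CPM in descending GFPiSMC replicate 2 and 16.6 CPM in ascending/arch GFPiSMC replicate 3. Counts of the set ranged from 66 for *Acvrl1* to 9166 for *Tgfbr1*, so that relative counting error is largest for *Acvrl1*. The spread that edgeR fitted beyond counting error was also largest for *Acvrl1*, a coefficient of variation of 0.481 against 0.188 for *Tgfbr1*. In these sorted populations fewer cells that express a gene and less RNA per cell cannot be told apart.

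**Figure D2:**
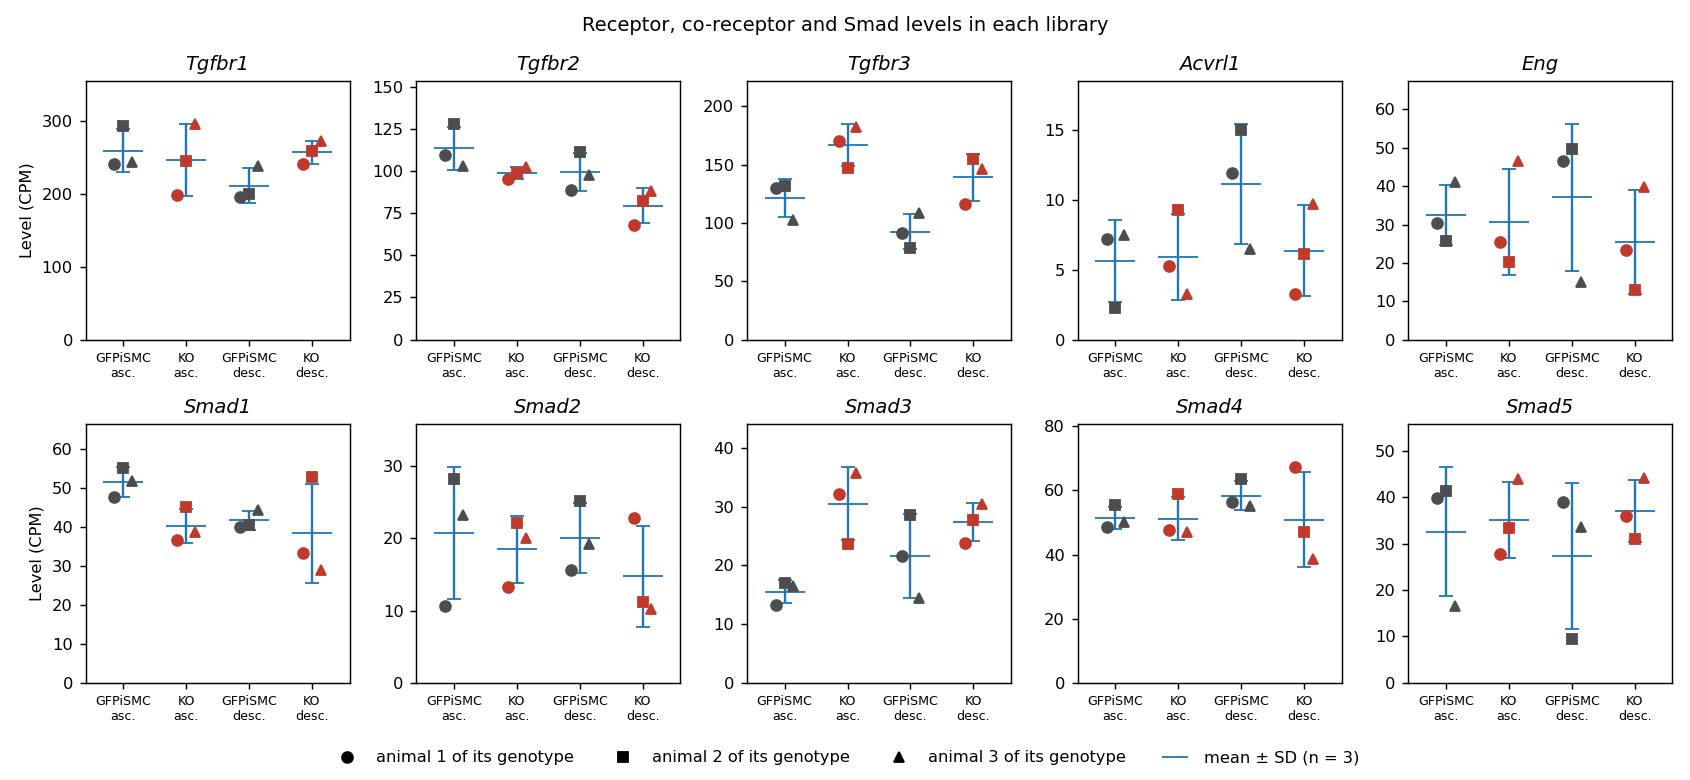
CPM of each gene (linear axes from 0) in the 3 libraries of each group, with the animal number as the symbol and the mean ± SD in blue; gray is GFPiSMC, red (KO) is Tgfbr1/2iSMCKO, asc. is ascending/arch, and desc. is descending. *Tgfbr3* is the gene whose KO libraries lie above the GFPiSMC libraries of the same segment in both segments.

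The first comparison asked how the signaling genes themselves stood after deletion of both receptors. Genotypes were compared by edgeR (quasi-likelihood F test) in a model that also held segment, and p values were adjusted over all genes tested by the Benjamini-Hochberg method. Of the 10 genes, 1 passed, *Tgfbr3*, against 5.03% of all genes in either direction and 1.8% that were higher in KO SMCs. At an unadjusted p under 0.05 there were 3, *Tgfbr3* and *Smad3* higher and *Tgfbr2* lower, against 16.1% of all genes. Fitted differences were above 0 for 4 and below 0 for 6 of the 10. Their median was −0.17, beside 0.04 over all genes, and their median size without sign was 0.29, beside 0.30 over all genes.

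*Tgfbr3*, the co-receptor that presents ligand to the type II receptor, had 130, 131, and 102 CPM in ascending/arch GFPiSMC libraries and 171, 147, and 182 CPM in the KO libraries of that segment. In the descending aorta it had 90.9, 78.6, and 108 CPM in GFPiSMC and 116, 155, and 146 CPM in KO libraries. Within each segment every KO library was above every GFPiSMC library, although the lowest descending KO library was below the higher ascending/arch GFPiSMC libraries. The log2 fold change was 0.52 (SE 0.12, 95% CI 0.26 to 0.79, adjusted p = 0.0226 by edgeR over 12 libraries). When both libraries of an animal were summed, to compare 3 animals with 3, it was 0.54 with an adjusted p of 0.10 by edgeR, and without any single animal other than KO replicate 2 the adjusted p was 0.0582 to 0.108. The fold change was 0.46 in ascending/arch and 0.59 in descending SMCs, with adjusted p of 0.329 and 0.172 by edgeR. Across the 12 libraries *Tgfbr3* correlated at r = −0.83 with the summed smooth muscle markers. That sum was 41417 to 49457 CPM in GFPiSMC and 36131 to 44814 CPM in KO libraries. *Acta2* alone, at 28437 CPM on average, made up most of it. Of the 8 markers, 1 passed the genotype test by edgeR, against 5.03% of all genes. This was *Mylk*, which was higher in KO SMCs (0.42). The median log2 fold change of the 8 was 0.24, beside 0.04 over all genes. The part of these markers in the *Tgfbr3* difference was not tested. *Tgfbr3* spans chr5:107106570-107289629 (−, GRCm38), and 4.54% of its exon bases are shared with *Gm43422*, a gene model on the same strand.

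*Eng*, the other co-receptor, had 15.1 to 49.6 CPM in GFPiSMC and 12.8 to 46.5 CPM in KO libraries, a spread that covered the genotype difference (log2 −0.31, 95% CI −1.04 to 0.42, adjusted p = 0.770 by edgeR). *Acvrl1* behaved likewise, with 2.27 to 14.9 CPM in GFPiSMC and 3.22 to 9.71 CPM in KO libraries (log2 −0.38, 95% CI −1.23 to 0.48, adjusted p = 0.760 by edgeR). These intervals leave room for a 2-fold change of *Acvrl1* or *Eng* in the downward direction. *Acvrl1* and *Eng* are both abundant in endothelium, and of the endothelial markers *Cdh5*, *Kdr*, *Tie1*, *Emcn*, and *Egfl7* each averaged under 1 CPM, from 0.565 to 0.991 CPM. *Pecam1* (75.9 CPM), *Esam* (35.9 CPM), and *Erg* (11.3 CPM) made up most of that list's sum. Of the 10 endothelial markers, 3 passed the genotype test by edgeR, *Cdh5* and *Esam* upward and *Erg* downward, against 5.03% of all genes. The median log2 fold change of the list was 0.81, beside 0.04 over all genes.

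*Tgfbr2*, the ligand-binding type II receptor and a deletion target, had 109, 128, and 103 CPM in ascending/arch GFPiSMC and 95.0, 98.8, and 102 CPM in KO libraries. In the descending aorta the values were 88.9, 111, and 97.7 CPM in GFPiSMC and 68.2, 82.1, and 88.0 CPM in KO libraries. Every KO library was below every GFPiSMC library of its segment, although the nearest libraries were close, at 102 and 103 CPM in ascending/arch and 88.0 and 88.9 CPM in descending SMCs. The fitted difference of −0.26 (SE 0.11, 95% CI −0.49 to −0.03) had an adjusted p of 0.233 by edgeR. The interval excludes a 2-fold lower count of the whole gene.

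*Tgfbr1*, the type I receptor and the other target, had 241, 292, and 244 CPM in ascending/arch GFPiSMC and 198, 245, and 295 CPM in KO libraries, so that the groups overlapped. In the descending aorta it had 196, 199, and 238 CPM in GFPiSMC and 241, 258, and 272 CPM in KO libraries, with every KO library above. The fitted difference was −0.07 in ascending/arch and 0.28 in descending SMCs, with adjusted p of 0.932 and 0.628 by edgeR. The difference between them, 0.36 (95% CI −0.15 to 0.86), had an adjusted p of 1.00 by edgeR.

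**Figure D3:**
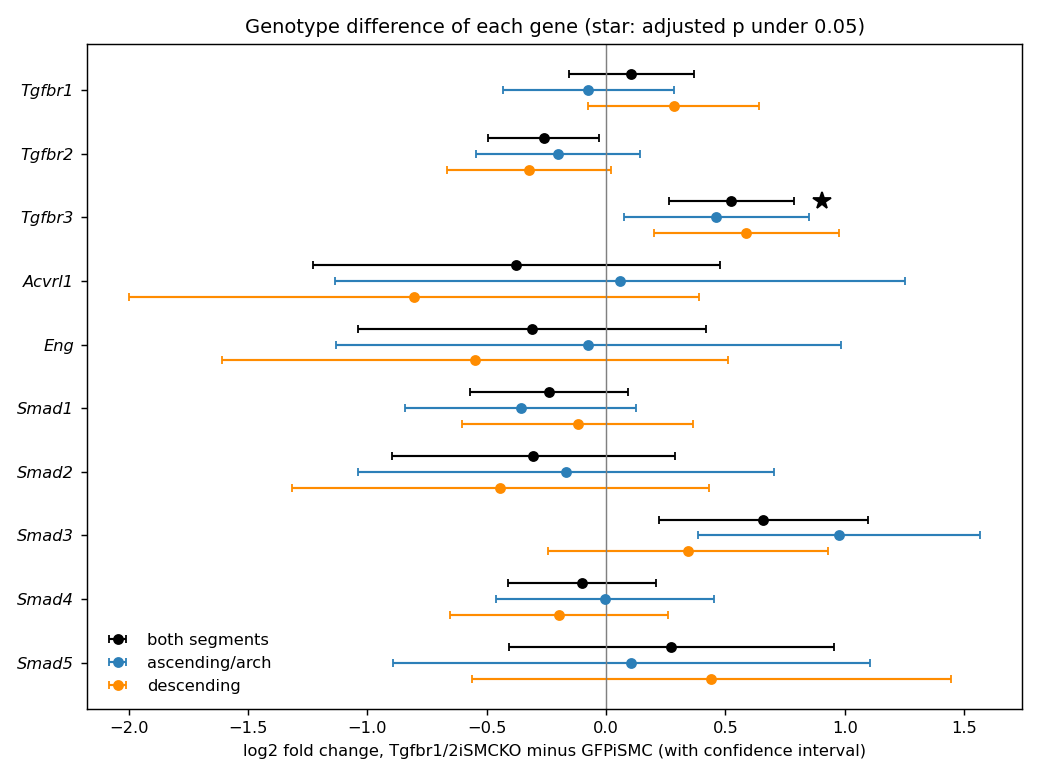
Log2 fold change of KO against GFPiSMC SMCs with its 95% confidence interval for each gene, over both segments (black), in ascending/arch (blue), and in descending SMCs (orange); the star marks an adjusted p under 0.05. *Tgfbr3* carries the only star, at 0.52, and the *Smad3* intervals reach from 0.22 to 1.10 over both segments.

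Among the Smads of the TGF-β branch, *Smad3*, which binds DNA directly, had 13.2, 16.9, and 16.4 CPM in ascending/arch GFPiSMC and 32.1, 23.7, and 35.7 CPM in KO libraries. There the groups were apart, with means of 15.5 ± 2.03 and 30.5 ± 6.18 CPM (SD, n = 3). In the descending aorta GFPiSMC libraries had 21.6, 28.6, and 14.3 CPM and KO libraries 23.9, 27.8, and 30.4 CPM, and the groups overlapped. The log2 fold change was 0.97 (95% CI 0.38 to 1.57, adjusted p = 0.125 by edgeR) in ascending/arch and 0.34 (95% CI −0.24 to 0.93, adjusted p = 0.782 by edgeR) in descending SMCs. The difference between segments was −0.63 (95% CI −1.46 to 0.20, adjusted p = 1.00 by edgeR). Over both segments *Smad3* was 0.66 higher (SE 0.20, 95% CI 0.22 to 1.10) with an adjusted p of 0.0915 by edgeR, and DESeq2 put it past the threshold there (adjusted p = 0.0292) and in ascending/arch SMCs (adjusted p = 0.0232). *Smad2*, the other Smad that *Tgfbr1* phosphorylates, had 10.6 to 28.3 CPM in GFPiSMC and 10.3 to 22.8 CPM in KO libraries, with a fitted difference of −0.30 (95% CI −0.90 to 0.29, adjusted p = 0.706 by edgeR).

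In the BMP and ALK1 branch, *Smad1* had 47.7, 55.2, and 51.7 CPM in ascending/arch GFPiSMC and 36.7, 45.1, and 38.8 CPM in KO libraries, which were all lower. In the descending aorta the KO libraries spread from 29.0 to 52.7 CPM around the GFPiSMC range of 40.0 to 44.4 CPM. The fitted difference of *Smad1* was −0.36 in the ascending/arch segment, −0.12 in the descending segment, and −0.24 over both (95% CI −0.57 to 0.09, adjusted p = 0.532 by edgeR). *Smad5* had 9.36 to 41.4 CPM in GFPiSMC and 27.8 to 44.3 CPM in KO libraries, with a fitted difference of 0.27 (95% CI −0.41 to 0.96, adjusted p = 0.790 by edgeR). The common partner *Smad4* had 48.7 to 63.4 CPM in GFPiSMC and 38.5 to 67.2 CPM in KO libraries, with a fitted difference of −0.10 (95% CI −0.41 to 0.21, adjusted p = 0.842 by edgeR).

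Within single segments none of the 10 passed the edgeR test, against 1.41% of all genes in ascending/arch and 1.72% in descending SMCs. At an unadjusted p under 0.05 there were 2 in ascending/arch, *Tgfbr3* and *Smad3*, against 2545 of the 22320 genes tested. In descending SMCs there was 1, *Tgfbr3*, against 2399 of 22320. DESeq2 called 1 of the 10 in ascending/arch, against 494 lower and 353 higher of 17290 genes. In descending SMCs DESeq2 called 0, against 518 lower and 337 higher of 20957. Libraries of the genotypes did not overlap for 4 of the 10 in ascending/arch (*Tgfbr3* and *Smad3* higher, *Tgfbr2* and *Smad1* lower), against 19.0% of all genes. In descending SMCs this held for 3 of 10 (*Tgfbr1* and *Tgfbr3* higher, *Tgfbr2* lower), against 14.9%. Over the 6 libraries of each genotype it held for 0 of 10, against 4.39%. No gene of the set, and 0.0% of all genes, had a genotype effect that differed between segments by edgeR, with 0 of the 10 at an unadjusted p under 0.05 and 0 by DESeq2.

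Ratios of genes within a library do not depend on the scaling between libraries, and 6 were compared, over the mean of each animal. The per-length ratio of *Tgfbr2* to *Tgfbr1* was 0.332 to 0.398 in the 3 GFPiSMC animals and 0.267 to 0.305 in the 3 KO animals. The log2 ratio was 0.36 lower in KO animals than in GFPiSMC animals (value −0.36), and the exact two-sided permutation test gave p = 0.1, the smallest that 3 against 3 animals can give (adjusted p = 0.3 over 6 ratios). In ascending/arch libraries alone the difference was −0.11 (exact permutation p = 0.6), and in descending libraries alone it was −0.61 (exact permutation p = 0.1). The ratio of *Smad2* to *Smad3* was 0.482 to 0.871 in GFPiSMC and 0.283 to 0.432 in KO animals, a log2 difference of −0.98 with the same exact permutation p of 0.1 (adjusted 0.3). The other 4 ratios had exact permutation p of 0.2 to 0.3, with log2 differences of −0.70 for *Smad1* to *Smad5*, 0.85 for *Tgfbr3* to *Eng*, −0.47 for *Acvrl1* to *Tgfbr1*, and −0.12 for the share of *Smad1* and *Smad5*. With 3 animals per genotype no ratio could pass 0.05.

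**Figure D4:**
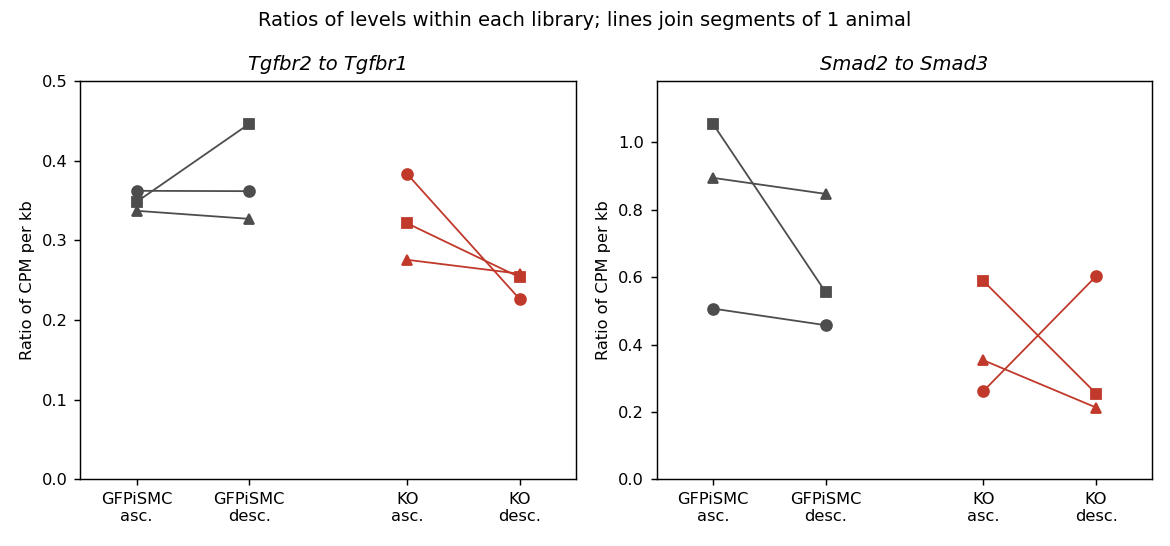
Ratios of CPM per kb of *Tgfbr2* to *Tgfbr1* (left) and *Smad2* to *Smad3* (right) in each library, gray for GFPiSMC and red for KO mice, with lines that join both segments of an animal. The *Tgfbr2* to *Tgfbr1* ratio lies between 0.226 and 0.447 in all 12 libraries, and its descending libraries are the ones in which the genotypes are apart.

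The second comparison asked whether the genes differed along the aorta. None of the 10 passed the edgeR test between descending and ascending/arch SMCs over both genotypes, against 0.797% of all genes, and DESeq2 called 0. At an unadjusted p under 0.05 there were 2, against 5.58% of all genes, and both were lower in descending SMCs. *Tgfbr2* had a fitted difference of −0.25 (95% CI −0.48 to −0.02, adjusted p = 0.796 by edgeR) and was lower in the descending library of 6 of 6 animals, which held for 3.39% of all genes. *Tgfbr3* had a fitted difference of −0.32 (95% CI −0.59 to −0.06, adjusted p = 0.625 by edgeR) and was lower in 4 of 6 animals. *Smad1* was lower in the descending library of 5 of 6 animals, with a fitted difference of −0.19 (95% CI −0.52 to 0.14). Within GFPiSMC mice 0 of the 10 passed by edgeR, against 0.376% of all genes, and 0 by DESeq2. At an unadjusted p under 0.05 there was 1 of the 10, against 1334 of the 22320 genes tested. Within KO mice 0 passed by edgeR, against 0.112%, and 0 by DESeq2. There 0 had an unadjusted p under 0.05, against 821 of 22320. The 6 ratios gave exact sign-flip permutation p of 0.344 to 0.875 between segments over 6 animals, with adjusted p of 0.812 to 0.875. Fibroblast markers moved with segment, and *Lum*, *Cd34*, and *Dcn* passed the edgeR test as lower in descending SMCs.

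The rest of the pathway was described with lists of genes by role, whose counts stand beside 3.23% of all genes tested that fell and 1.8% that rose by the same edgeR test. These lists were chosen with earlier results of these data known, so that their counts and medians are a description and not a test. Of 12 TGF-β target genes, 7 fell in KO SMCs and 0 rose, and the median log2 fold change of the list was −1.41. They included *Pmepa1* (−3.23), which restrains TGF-β signaling, *Eln* (−4.12), which encodes elastin, *Ccn2* (−5.73), a matricellular protein, and *Col1a1* (−1.45), a fibrillar collagen chain. Of 9 targets of BMP and ALK1 signaling, 1 rose, *Id2* (0.42), a repressor of helix-loop-helix factors, and 0 fell, with a median of 0.58. *Acvrl1* signaling is best known from endothelium, and the 10 endothelial markers had a median of 0.81, whose part in the BMP and ALK1 values was not tested. These medians stand beside −0.17 for the 10 receptor and Smad genes and 0.04 for all genes tested.

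Against the same shares of all genes, 3.23% lower and 1.8% higher, of 13 genes for ligands and their latency 2 fell in KO SMCs, *Ltbp3* (−1.75), which holds latent TGF-β in the matrix, and the ligand *Tgfb2* (−0.79), and 0 rose. Of 17 inhibitors and turnover factors, 2 fell, *Pmepa1* and the co-receptor *Cd109* (−1.29), and 1 rose, *Cav1* (0.68), which encodes caveolin-1. Of 12 genes for Smad-independent kinases and their adaptors, 3 fell, *Rock1* (−0.87), *Rock2* (−0.54), and *Tab2* (−0.45), and 0 rose. Of 8 other type I and type II receptors of the family, 0 passed by edgeR, with 3 at an unadjusted p under 0.05 and 1 called by DESeq2, the BMP type I receptor *Acvr1* (−0.48, adjusted p = 0.0839 by edgeR). Of 11 adaptors and nuclear partners, 0 passed by edgeR, with 2 at an unadjusted p under 0.05 and 1 called by DESeq2, *Smad9* (0.58, adjusted p = 0.0603 by edgeR), which encodes another Smad of the BMP branch. DESeq2 also called 6 in place of 3 inhibitors and 2 in place of 1 BMP and ALK1 targets. Over all genes DESeq2 called 1087 lower and 835 higher of 17286, and 16.1% had an unadjusted p under 0.05 by edgeR. Between segments 0 genes of these 7 lists passed by edgeR, and DESeq2 called 1. At an unadjusted p under 0.05 there were 6, against 5.58% of all genes.

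**Figure D5:**
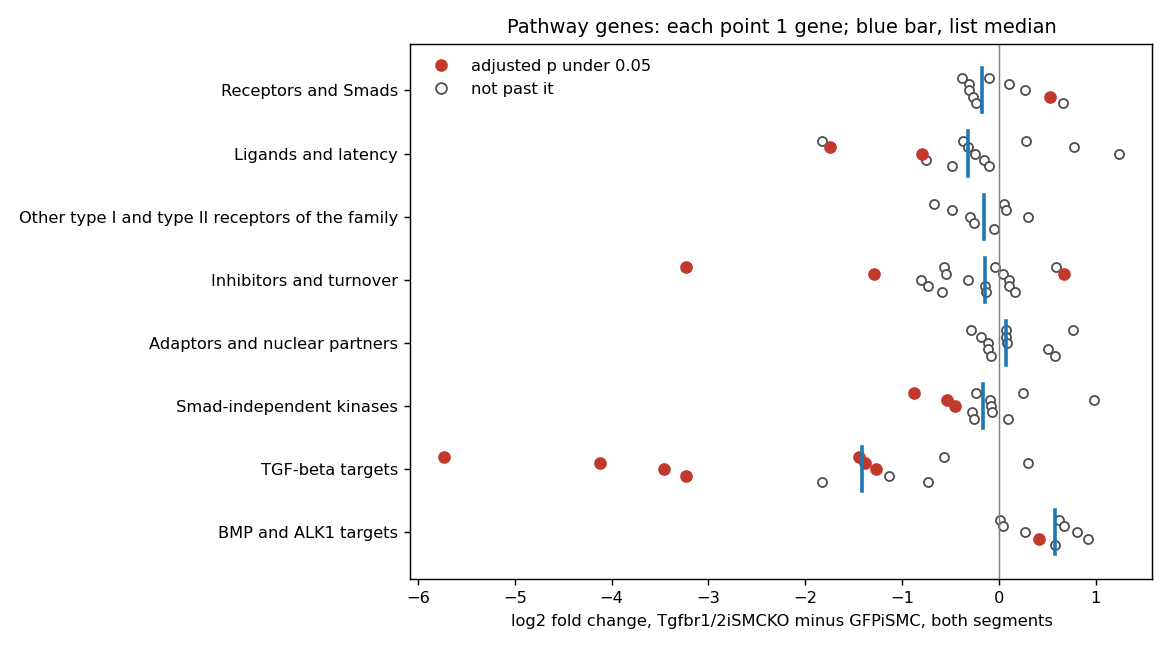
Log2 fold change over both segments of each gene tested in the set of 10 (top row) and in 7 lists of the pathway, with filled red points for an adjusted p under 0.05 and blue bars for list medians. The TGF-β targets center at −1.41 and the receptors and Smads at −0.17. The lists were chosen with earlier results of these data known.

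For each of the 10, the genes with the most similar pattern were sought among the 8871 genes that averaged 10 CPM or more, by Pearson's r of log2 CPM over the 12 libraries, which come from 6 animals and share depth and group differences. *Tgfbr3* was closest to *Tatdn3* (r = 0.950), *Dpysl2* (0.932), and *Dzip1* (0.906). *Smad3* was closest to *Pdk1* (0.938). *Tgfbr2* was closest to *Nfat5* (0.899) and *Tgfbr1* to *Manea* (0.865). *Smad1* and *Eng* had the closest neighbors of the set, *Slain2* (0.974) and *Psmd9* (0.964). *Smad5* was closest to *Atp2c1* (0.947), *Smad2* to *Adcy3* (0.893), *Smad4* to *Med8* (0.854), and *Acvrl1* to *Pprc1* (0.834). Among the 10 themselves the highest correlation was that of *Smad2* with *Smad4* (0.72), and that of *Tgfbr1* with *Acvrl1* was −0.61. Of the 10, *Eng* varied most with technical measures of the libraries, at r = −0.70 with the number of sorted cells and 0.68 with total counts. Next were *Acvrl1* with sorted cells (−0.60) and *Tgfbr2* with total counts (0.56).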

How the data were processed

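RNA-seq libraries of sorted aortic SMCs were grouped by genotype and segment. Per the study's methods, the authors used Trim Galore 0.5.0 for trimming, HISAT2 2.1.0 for alignment to the mouse genome GRCm38, and StringTie 1.3.3b for quantification against GENCODE M15. The deposited values are whole-number counts per gene, not normalized, and the step from coverage to counts is not given in the sources used here. The library kit does not mark strand, so that reads of overlapping antisense genes cannot be told apart, which touches 2.98% of *Acvrl1* and 1.51% of *Eng* exon bases. Symbols and coordinates came from GENCODE M21 on the same build (52403 genes matched).

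Counts were compared with edgeR 4.0.16 in R 4.3.3 (filterByExpr with a minimum count of 10, TMM factors, quasi-likelihood test, Benjamini-Hochberg adjustment over 22320 genes), with segment and genotype for overall effects and 4 group means for the others. CPM used TMM-scaled library sizes. Adjusted p values are edgeR's unless DESeq2 1.42.0 or limma 3.58.1 is named. Ratios were compared with exact permutation tests in scipy 1.17.1, and Python 3.11.15 with matplotlib 3.10.9 drew the figures. The steps were tested on simulated data. The total count per library was 20467027 to 31392396, and intervals rest on the spread between libraries.

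The 10 genes and all lists were chosen with earlier results of these data known. The text names all 10, up to the 3 most similar genes for each, and up to 4 genes with the smallest p from each pathway list, while *Acvr1*, *Smad9*, and the marker genes were named after their values were seen. Within a genotype, equal numbers in the labels were read as both segments of 1 animal. After removal of group means their correlation over 9428 genes with a mean above 8 CPM was 0.159, −0.225, and 0.0307 in GFPiSMC and 0.0842, 0.376, and 0.655 in KO animals. Numbers shared between genotypes name different mice. The labels give no sequencing batch, and no column was left out. Alternatives were other tests, scalings and filters, counts divided by 2, blocks, sums per animal, 1 segment or genotype alone, and each animal left out.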

Additional observations from a re-analysis of the deposited data

How the results depend on the processing

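Of the 10 genes, 1 (*Tgfbr3*) passed an adjusted p of 0.05 between genotypes over both segments. The number was 2 with DESeq2 and with library size only, where *Smad3* joined *Tgfbr3*. Over all genes DESeq2 called 1087 lower and 835 higher of 17286, against 721 lower and 402 higher of 22320 in the main fit. Library size only called 505 lower and 699 higher of 22320. For the set of 10 the number was 0 without a filter beyond 1 count, with counts summed per animal, and without a segment term. With 1 animal left out it ranged from 0 to 1, and only the fit without KO replicate 2 kept *Tgfbr3* (adjusted p = 0.0433 by edgeR). The log2 fold change of *Tgfbr3* stayed between 0.46 and 0.65 under the 15 alternatives, with an adjusted p of 0.00393 to 0.108, and that of *Smad3* between 0.55 and 0.82 with 0.0292 to 0.335. In ascending/arch SMCs DESeq2 called 1 gene (*Smad3*) in place of 0. Over all genes it called 494 lower and 353 higher of 17290 there, against 225 and 90 of 22320 by edgeR. The numbers in the other 5 comparisons stayed at 0 under all alternatives run.

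Values near 0 changed sign without passing. *Tgfbr1* over both segments was −0.0021 to 0.20 with 1 animal left out, and in ascending/arch SMCs it was −0.24 to 0.067 with 1 animal left out and 0.021 with library size only. With library size only *Smad4* was 0.025 over both segments and *Smad1* was 0.031 in descending SMCs, where leaving out 1 animal gave −0.42 to 0.031 for *Smad1*. That scaling moved the median of all genes from 0.04 to 0.16 and the genes called from 721 lower and 402 higher to 505 lower and 699 higher. Between genotypes, the log2 ratio of *Acvrl1* to *Tgfbr1* was 0.20 in ascending/arch libraries alone and the share of *Smad1* and *Smad5* 0.022 in descending libraries alone. Between segments and with 1 animal left out, *Tgfbr3* to *Eng* was −0.52 to 0.12, *Smad1* to *Smad5* −0.41 to 0.17, and the share of *Smad1* and *Smad5* −0.10 to 0.025. The causes were not tested. With the replicate number as a block *Tgfbr3* kept its call (0.52, adjusted p = 0.0464 by edgeR), and with the animal as a block 0 genes passed between segments, so that no block changed a call. Libraries of different genotype with the same segment and number correlated at −0.519 to 0.198 after removal of group means. These values cannot decide whether the numbers pair animals, since both segments of 1 animal gave −0.225 to 0.655. *Acvrl1* had counts as low as 66 and the largest spread between libraries of the 10.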
